A study of Homo sapiens with 6 samples.

Results

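The clade B serpins are a family of mostly intracellular protease inhibitors, and 10 of the 13 clade B genes of the count table were followed here: SERPINB1, SERPINB2, SERPINB3, SERPINB4, SERPINB5, SERPINB6, SERPINB7, SERPINB8, SERPINB9 and SERPINB13. They were found by symbol among the 60664 genes of the table, and the family was selected on the differences that several of its members show between the groups compared here, so those differences are given as a description and support nothing by themselves. The libraries came from SiHa PR cells, the parental form of an established human cervical squamous carcinoma line, with 3 libraries labelled SiHa PR (control) and 3 labelled SiHa PR P4HA3, in which P4HA3, a subunit of collagen prolyl hydroxylase, was overexpressed. The methods describe lentiviral cDNA vectors for overexpression. The study made this comparison to ask how P4HA3 makes cells resist ferroptosis. The labels say nothing of an empty vector in the control, of the number of clones or of separate cultures, so p-values below measure the spread between these libraries, which may be technical. A deposited growth text describes uterine smooth muscle, but all other labels give SiHa cells.

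A serpin presents an exposed reactive-site loop as bait. A protease that cuts the loop is trapped in a covalent complex with the serpin and both are lost, and the residues of the loop decide which protease is caught. Clade B members lack a classical secretion signal and protect the cell's own cytoplasm from granule and lysosomal proteases. Squamous epithelium is known for expressing a set of them from a gene cluster on chromosome 18 (18q21), which holds SERPINB5, SERPINB12, SERPINB13, SERPINB4, SERPINB11, SERPINB3, SERPINB7, SERPINB2, SERPINB10 and SERPINB8 roughly in that order, while SERPINB1, SERPINB9 and SERPINB6 lie together on chromosome 6 (6p25) and are expressed in many tissues. SERPINB3 is best known in cervical cancer as squamous cell carcinoma antigen, a serum marker.

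P4HA3 itself had 86, 62 and 93 counts in the control libraries and 45042, 44775 and 49097 in the overexpressing libraries, higher in the libraries so labelled. Total counts per library lay between 21773488 and 24939948, so 3 counts, the limit that a count of 0 allows, correspond to between 0.118 and 0.141 CPM (counts scaled to library size), for counting error only. Of 10 epithelial markers 9 were expressed highly enough to test, with a sum between 11119 and 13511 CPM per library. Of 8 smooth muscle markers 3 (SMTN, ACTA2 and TAGLN) could be tested, and the 8 summed to between 103 and 128 CPM per library. SMTN was at 93.2 and 95.9 CPM in control and P4HA3, and ACTA2 at 7.77 and 7.97 CPM. DES, MYH11 and CNN1 had at most 9 counts in any library, LMOD1 at most 3 and SYNPO2 at most 16. Of the 8 leukocyte markers, CD14 alone had more than 3 counts in a library, and CD3E, MS4A1, NKG7 and ITGAM had none. Markers moved with the groups as well, with 4 epithelial genes called lower by edgeR's quasi-likelihood test (CDH1, KRT18, KRT17 and CDKN2A, with CDH1, or E-cadherin, at 16.4 and 9.65 CPM in control and P4HA3) and the smooth muscle gene TAGLN higher (8.83 and 17.2 CPM), and their part in the serpin values was not tested. With the GC and length correction described below KRT17 and CDKN2A lost their calls, and 2 other epithelial markers were called higher. Of the smooth muscle markers 2, TAGLN among them, were called higher with the correction. Without the correction 9.36% of all genes tested were called higher and 11.4% lower. Expression is given below as CPM after TMM scaling when 1 gene is compared between libraries, and as TPM, which also divides by transcript length, when different genes are compared.

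SERPINB3 and SERPINB4 are recent duplicates, and their sequences bear on how far their counts can be told apart. Their canonical transcripts have 1707 bases each and differ at 74 of them (95.66% identity), and the coding sequences of 1173 bases differ at 56. No stretch of 150 bases, the length of the reads, was identical between both transcripts among 1558 such stretches. The 120 coding bases with the most differences, 18, are shown because they lie in the last exon, in the part of the protein that carries the reactive-site loop. They are coding bases 952 to 1071, codons 318 to 357, at chr18:63655759-63655878 (SERPINB3) and chr18:63637821-63637940 (SERPINB4) of GRCh38, both read from the minus strand, with capitals at the bases that differ.
SERPINB3 coding: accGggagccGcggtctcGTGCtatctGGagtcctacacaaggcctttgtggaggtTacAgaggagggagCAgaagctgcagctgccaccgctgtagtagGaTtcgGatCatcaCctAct
SERPINB4 coding: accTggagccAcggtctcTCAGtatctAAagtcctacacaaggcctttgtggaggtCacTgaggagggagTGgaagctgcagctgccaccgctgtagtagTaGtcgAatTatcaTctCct

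The promoters of the pair are shown because both genes were lower together. In the RefSeq promoter windows of GRCh38 the 250 bases before the start differ at 3 positions, in capitals, at chr18:63661894-63662143 for SERPINB3 and chr18:63644257-63644506 for SERPINB4, both on the minus strand.
SERPINB3 promoter: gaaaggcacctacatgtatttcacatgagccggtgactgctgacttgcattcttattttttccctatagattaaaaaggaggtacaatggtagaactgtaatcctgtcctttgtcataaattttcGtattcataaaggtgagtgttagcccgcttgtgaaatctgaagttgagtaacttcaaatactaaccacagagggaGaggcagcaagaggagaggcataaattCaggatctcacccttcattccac
SERPINB4 promoter: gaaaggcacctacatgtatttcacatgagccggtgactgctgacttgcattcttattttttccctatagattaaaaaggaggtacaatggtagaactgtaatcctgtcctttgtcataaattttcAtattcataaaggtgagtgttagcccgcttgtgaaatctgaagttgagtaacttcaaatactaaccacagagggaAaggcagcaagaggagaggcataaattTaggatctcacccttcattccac

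SERPINB7 lies beside them in the cluster and had the opposite sign. The 250 bases before the start of its canonical transcript, at chr18:63775168-63775417 on the plus strand, hold TGAGTCA, a motif of the AP-1 factors, here in capitals.
SERPINB7 promoter: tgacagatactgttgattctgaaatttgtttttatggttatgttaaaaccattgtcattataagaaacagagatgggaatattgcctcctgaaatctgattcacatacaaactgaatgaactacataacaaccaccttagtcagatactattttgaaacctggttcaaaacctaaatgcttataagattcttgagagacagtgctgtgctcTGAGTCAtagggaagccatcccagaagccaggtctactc

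The motif TGAGTCA was searched on both strands (TGACTCA on the other) in windows of 300 bases, from 250 before to 50 after each RefSeq start. All 10 genes had at least 1 window. It was present in SERPINB7 at 2 of its 3 starts (39 and 45 bases before the start), in SERPINB8 (28 bases before) and in SERPINB13 (87 bases before), and in 6.05% of 27305 genes or 4.95% of 35116 windows overall. The windows of the other 7 genes did not hold these letters. A match is a description of sequence and not a binding site.

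SERPINB3, an inhibitor of lysosomal cysteine proteases such as cathepsins L, S and K, had the highest count of the 3 lower genes of the 18q21 cluster. It had 190, 178 and 165 counts in control libraries 1, 2 and 3 and 51, 42 and 42 in P4HA3 libraries 1, 2 and 3, which correspond to 7.63 ± 0.818 CPM (SD, n = 3) and 1.90 ± 0.269 CPM. Every P4HA3 library was far below every control library, and the log2 fold change was -2.00 (standard error 0.147), 4.01-fold lower. An exon of SERPINB11 on the opposite strand overlaps 620 bases of SERPINB3, and SERPINB11 itself had 0 counts in all 6 libraries. Whether reads in the shared bases were counted for either gene cannot be told, as the strand setting is not given.

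SERPINB4, whose loop catches chymotrypsin-like serine proteases such as cathepsin G and mast cell chymase, was lower by a similar amount. Its counts were 63, 84 and 64 in control and 11, 15 and 16 with P4HA3, and its expression was 3.05 ± 0.774 and 0.590 ± 0.103 CPM (SD, n = 3 each). The groups were again far apart. The log2 fold change was -2.36 (standard error 0.249), 5.14-fold lower, with the highest control library, replicate 2, at 3.94 CPM and the other 2 at 2.58 and 2.61 CPM.

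The proportions of the pair overlapped between the groups. SERPINB4 made up 24.9%, 32.1% and 27.9% of the summed counts of both genes in the control libraries, and 17.7%, 26.3% and 27.6% in the P4HA3 libraries. The Wilson 95% intervals of these shares all overlapped, from 26.7% to 37.9% in control library 2 and from 10.2% to 29.0% in P4HA3 library 1, and cover counting error only. How the authors' counting treated reads with more than 1 match is not stated, and the sum of both genes does not depend on reads being assigned to the wrong one of them. The sum was 253, 262 and 229 counts in control and 62, 57 and 58 with P4HA3, and its log2 fold change was -2.10 (standard error 0.139).

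SERPINB2, the plasminogen activator inhibitor 2 that blocks urokinase, was the third lower gene of the cluster and is known from few reads. It had 33, 25 and 21 counts in control and 8, 8 and 16 with P4HA3, or 1.13 ± 0.251 and 0.443 ± 0.162 CPM (SD, n = 3). The groups did not overlap, but P4HA3 library 3, at 0.630 CPM, came near control library 3, at 0.857 CPM. The log2 fold change was -1.33 (standard error 0.308). SERPINB2 passed the filter on low counts only through the control group, so a lower value in the other group was built into its being tested. Exons of an unnamed coding gene (ENSG00000289724) on the same strand share 547 bases with SERPINB2. That gene was not in the count table, so whether any reads there came from it cannot be told.

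SERPINB7, known as megsin and expressed in keratinocytes and kidney mesangium, was the 1 member called higher, and is also known from few reads. Its counts were 18, 15 and 25 in control and 53, 35 and 40 with P4HA3, or 0.821 ± 0.174 and 1.80 ± 0.409 CPM (SD, n = 3). P4HA3 library 1, at 2.27 CPM, stood above libraries 2 and 3, at 1.56 and 1.58 CPM, and the lowest of these was above the highest control library, at 1.02 CPM. The log2 fold change was 1.12 (standard error 0.240), 2.18-fold higher, and it was 0.92 to 1.32 when each library was left out in turn.

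SERPINB5, or maspin, a serpin without protease-inhibitory activity that is known as a tumour suppressor of epithelium, was the most abundant gene of the 18q21 cluster. It had 1942, 1679 and 2071 counts in control and 2211, 2027 and 2274 with P4HA3. Its expression was 81.0 ± 3.12 and 91.5 ± 2.92 CPM (SD, n = 3), without overlap between the groups, and the log2 fold change was 0.18 (standard error 0.0572).

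SERPINB8, which can inhibit the proprotein convertase furin, had 532, 469 and 568 counts in control and 600, 583 and 670 with P4HA3. Its expression was 22.3 ± 0.743 and 26.0 ± 0.338 CPM (SD, n = 3), again without overlap, and its log2 fold change was 0.22 (standard error 0.0710). Both SERPINB5 and SERPINB8 were close to no difference when the dependence of every library on the GC content and length of transcripts was removed, at log2 fold changes of 0.03 and 0.09. SERPINB8 shares 370 bases of exon with HMSD on the same strand, a gene with 0 counts in every library. Whether reads in these shared bases were counted for either gene cannot be told.

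SERPINB13, a cathepsin L inhibitor of keratinocytes, had 0 counts in all 6 libraries, which allows at most 0.118 to 0.141 CPM. SERPINB10 and SERPINB11 also had none, and SERPINB12 had at most 3 counts in a library. The 18q21 cluster in these cells was therefore represented by 6 genes.

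**Figure D1:**
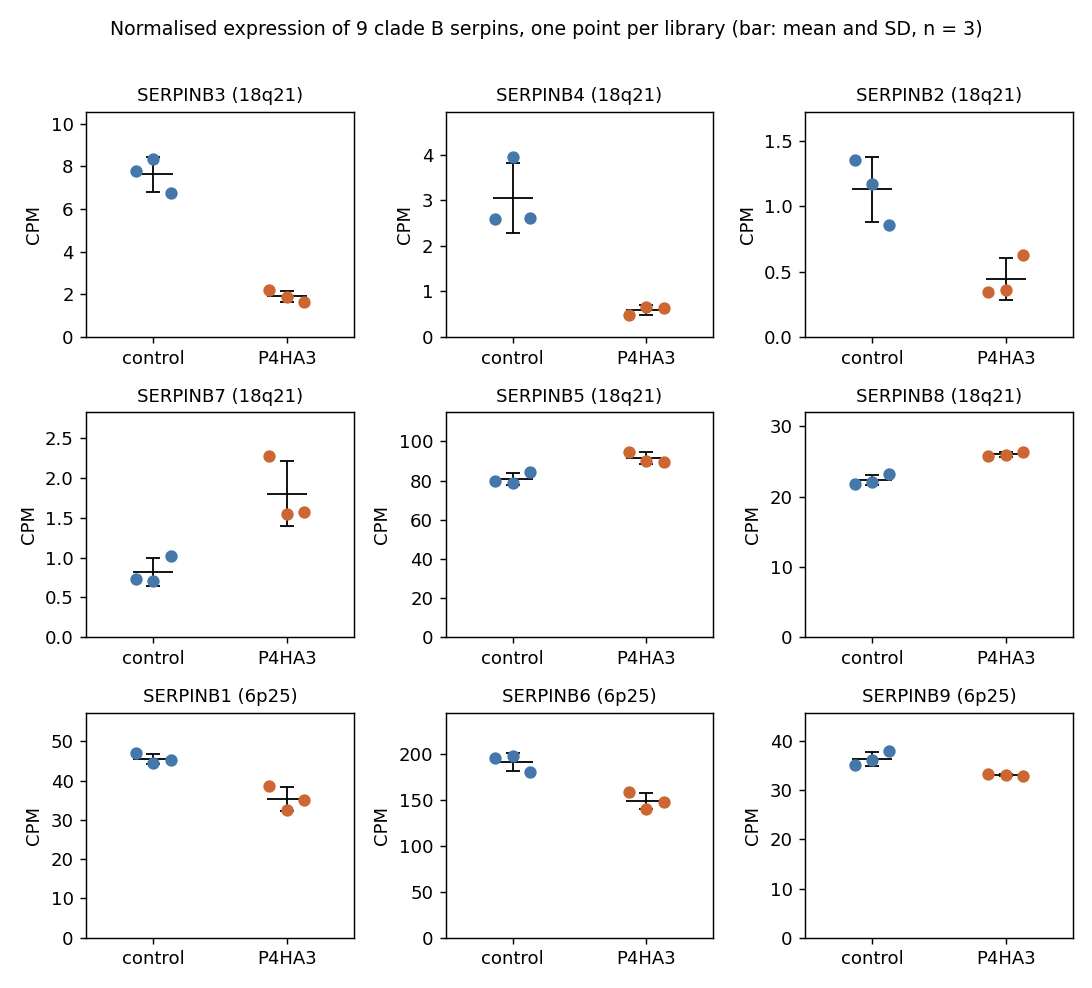
Each panel plots the TMM-scaled expression of 1 gene in CPM on an axis from 0, with 1 point per library, control in blue and P4HA3 overexpression in orange, and the mean with its SD (n = 3). In all 9 panels the groups are apart, by a wide gap for SERPINB3 (6.74 to 8.35 against 1.65 to 2.19 CPM) and SERPINB4 and by a narrow one for SERPINB9 (35.1 to 37.9 against 32.8 to 33.2 CPM).

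Of the 3 genes on 6p25, SERPINB6 and SERPINB1 were slightly lower. SERPINB6, an inhibitor of cathepsin G that is widely expressed, had 4770, 4228 and 4418 counts in control and 3697, 3158 and 3751 with P4HA3. Its expression was 191 ± 9.67 and 149 ± 9.20 CPM (SD, n = 3), without overlap, and the log2 fold change was -0.36 (standard error 0.0635), 1.29-fold lower.

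SERPINB1, the inhibitor of neutrophil elastase, proteinase 3 and cathepsin G, had 1146, 950 and 1107 counts in control and 898, 733 and 888 with P4HA3. It was at 45.6 ± 1.28 and 35.4 ± 3.00 CPM (SD, n = 3) in groups that did not overlap, and its log2 fold change was -0.37 (standard error 0.0750).

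SERPINB9, which protects cells from granzyme B, was nearest to no difference among the tested genes. Its counts were 856, 771 and 928 in control and 775, 745 and 833 with P4HA3. Its expression was 36.4 ± 1.40 and 33.1 ± 0.223 CPM (SD, n = 3), and its log2 fold change was -0.14 (standard error 0.0652). With the trend on GC content and length removed it was -0.25 (standard error 0.0541), which was called lower. As in any bulk sample, fewer cells expressing a gene and less RNA per cell cannot be told apart.

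SERPINB1 and SERPINB9 are also genes of leukocytes, so the leukocyte list is given beside them. The sum of the 8 markers was 91.2 to 110 CPM in control and 35.1 to 50.9 CPM with P4HA3, which came almost wholly from CD14 at 99.8 ± 9.24 and 45.0 ± 8.67 CPM (SD, n = 3). The other 7 markers had at most 3 counts in any library, and the pan-leukocyte gene PTPRC had 0 counts in 5 libraries and 1 in the other.

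Of the 9 genes tested, 1 (SERPINB7) was called higher and 5 (SERPINB1, SERPINB2, SERPINB3, SERPINB4 and SERPINB6) were called lower by edgeR's quasi-likelihood test at a Benjamini-Hochberg adjusted p under 0.05. SERPINB5, SERPINB8 and SERPINB9 were not called, and SERPINB13 could not be tested. Across all 15130 genes tested, 9.36% were called higher and 11.4% lower, and nothing is read from the members' share because the same contrast chose them. The groups did not overlap in all 9 genes, 3 higher and 6 lower, against 19.7% of all tested genes higher and 20.4% lower without overlap. The calls depended on the libraries used. With each of the 6 libraries left out in turn, SERPINB3, SERPINB4 and SERPINB6 were called in all 6 fits, SERPINB2 and SERPINB7 in 4, and SERPINB1 in 3. SERPINB2 and SERPINB7 lost their calls without control library 1 or 2, and SERPINB1 without either of these or P4HA3 library 3. The share of all genes called also ran from 3.47% to 35.9% over these fits, against 20.8% with all libraries.

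The difference between the groups varied with GC content. Across 15107 genes, which are not independent replicates, the log2 fold change had a Spearman's rho of -0.58 with the GC content of the transcript. The transcripts of the members have between 37.9% and 43.5% GC, except SERPINB6 with 50.9%. With this dependence and that on length removed from every library, SERPINB3 was at -2.15 (standard error 0.157), SERPINB4 at -2.52 (0.257), SERPINB2 at -1.46 (0.316) and SERPINB7 at 0.99 (0.248). SERPINB1 was then at -0.45 and SERPINB6 at -0.29. Over all genes the correction moved the share of calls that were higher from 45% to 57.1%.

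**Figure D2:**
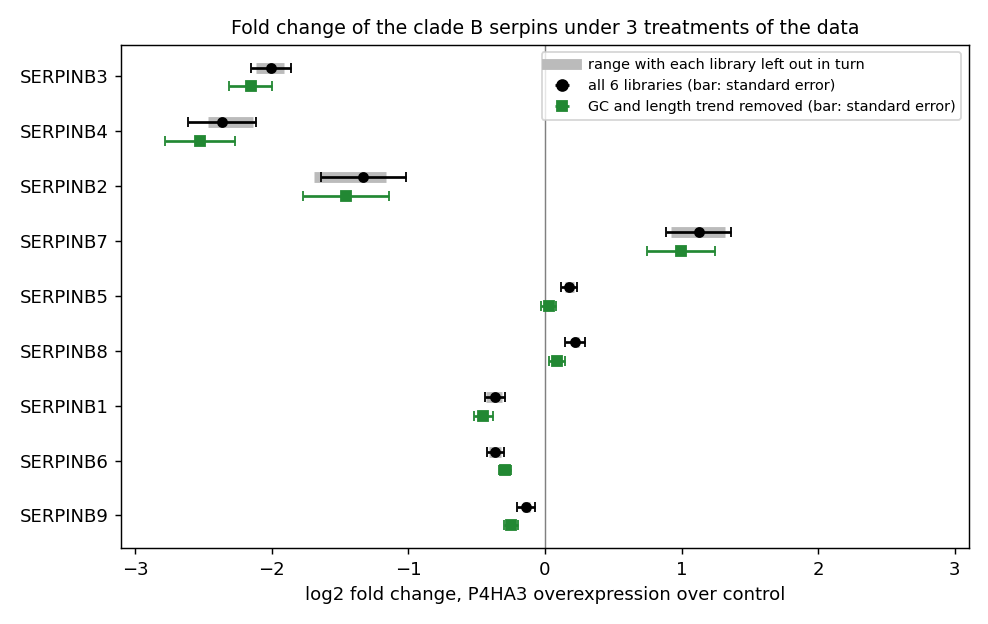
The log2 fold change of P4HA3 overexpression over control (horizontal axis) is drawn for 9 genes with all 6 libraries (black points, standard error), as the range when each library is left out in turn (grey bars) and with the GC and length trend removed (green squares, standard error). SERPINB3, SERPINB4 and SERPINB2 stay below -1 in each case, SERPINB7 stays between 0.92 and 1.32, and SERPINB5 and SERPINB8 come close to 0 with the trend removed.

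By chromosome, the 6 tested 18q21 genes ran from -2.36 to 1.12 on the log2 scale, with 1 called higher, 3 lower and 2 not called, and the 3 genes of 6p25 ran from -0.37 to -0.14, with 2 called lower and 1 not called. Medians were -0.58 on 18q21, -0.36 on 6p25 and 0.0055 over all tested genes. The 18q21 median lay in the gap between SERPINB2 at -1.33 and SERPINB5 at 0.18, with no tested gene near it. The difference of the cluster medians, -0.21, therefore depended on which genes were tested. When at least 10 counts were required in every library, which leaves SERPINB2 out, it was 0.54.

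Along the 18q21 cluster the direction changed between nearby genes. SERPINB4 and SERPINB3 lie next to each other apart from SERPINB11, and SERPINB7, higher with P4HA3, lies between them and the lower SERPINB2. Of 6 genes within 500 kb of the 18q21 cluster 5 were in the table and 4 could be tested. None of these was called by edgeR's quasi-likelihood test, its exact test, DESeq2 or limma-voom, and 2 of the 4 had an unadjusted p under 0.05, VPS4B at 0.23 and KDSR at -0.15. Their median was 0.07. KDSR was called lower with the GC and length trend removed (-0.34, adjusted p = 0.00676). Of 9 neighbours of the 6p25 genes 8 could be tested, and NQO2 was called lower (-0.27, standard error 0.0861, adjusted p = 0.0481) without holding that call when the GC and length trend was removed (adjusted p = 0.142), where TUBB2A and WRNIP1 were called higher instead (0.49 and 0.15, adjusted p = 0.00128 and 0.0398). The median of these 8 was -0.05, against -0.36 for the 3 serpins among them.

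**Figure D3:**
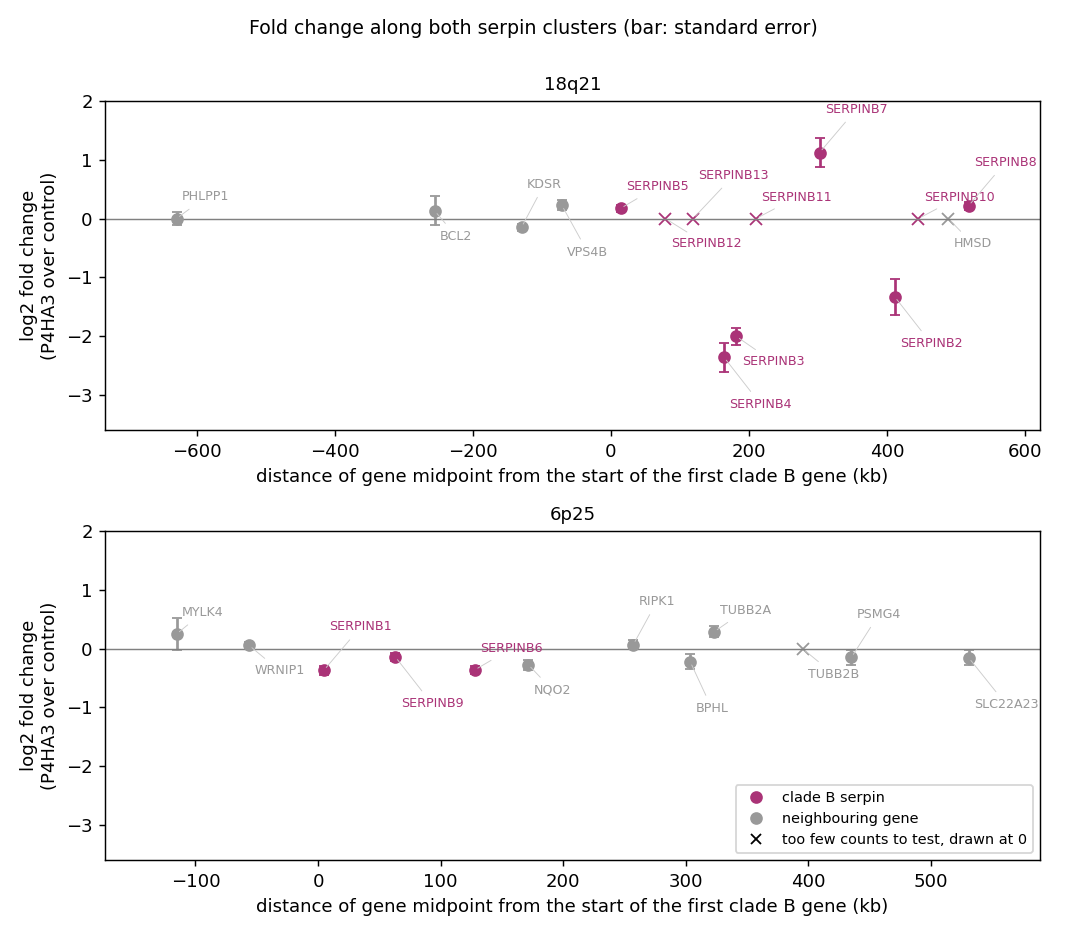
The log2 fold change (vertical axis, standard error) is drawn against the distance in kb of each gene's midpoint from the start of the first clade B gene, for 18q21 (top) and 6p25 (bottom), with clade B serpins in purple, neighbouring genes in grey and untested genes as crosses at 0. On 18q21 the serpins spread from -2.36 to 1.12 while their neighbours lie between -0.15 and 0.23. On 6p25 the 3 serpins lie between -0.37 and -0.14 and their neighbours between -0.27 and 0.29.

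Scaled by length, SERPINB6 was the most abundant clade B transcript in control cells at 290 ± 5.52 TPM (SD, n = 3), 66.7% of the family's sum, followed by SERPINB5 at 62.6, SERPINB1 at 36.8, SERPINB9 at 17.5, SERPINB8 at 13.4, SERPINB3 at 8.90, SERPINB4 at 3.55, SERPINB2 at 1.18 and SERPINB7 at 0.750 TPM. Neighbours in this order did not overlap between libraries, except SERPINB2 and SERPINB7. The place of SERPINB6 and its share of the sum depended on the length used. Its canonical transcript has 1315 bases and all its annotated exons together 13201, and with the latter length it was at 51.1 TPM, behind SERPINB5 at 76.5 and SERPINB1 at 52.8 TPM. With these lengths SERPINB3, at 15.7 TPM, also stood above SERPINB8 at 13.7 TPM, and SERPINB9 was at 31.0 TPM.

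With P4HA3 the upper 5 kept their order, at 238, 74.3, 30.0, 16.8 and 16.5 TPM, though the libraries of SERPINB9 and SERPINB8 now overlapped. Below them SERPINB3 was at 2.34 TPM and SERPINB7, at 1.71 TPM, stood above SERPINB4 at 0.730 and SERPINB2 at 0.491 TPM, which overlapped. The sum of SERPINB2, SERPINB3 and SERPINB4 was 13.6 ± 1.48 TPM in control and 3.56 ± 0.0891 TPM with P4HA3 (SD, n = 3). The whole 18q21 cluster, carried by SERPINB5, summed to 90.4 ± 4.31 and 96.1 ± 2.02 TPM, with overlap between the libraries of both groups. The 6p25 genes summed to 345 ± 3.66 and 284 ± 5.48 TPM without overlap. Most of this was SERPINB6, at 290 and 238 TPM, which was at 51.1 and 41.8 TPM with exon-union lengths. The sizes of the 2 cluster sums therefore depend on the length used and are not compared with each other.

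**Figure D4:**
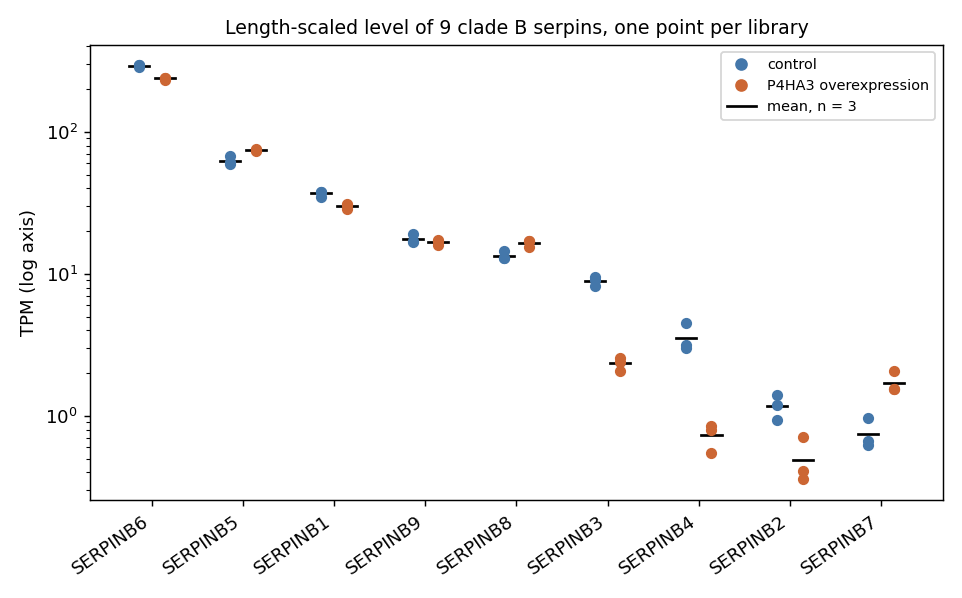
Length-scaled levels in TPM on a logarithmic axis are drawn for 9 genes in the order of their control means, with 1 point per library (control in blue, P4HA3 overexpression in orange) and the mean of each group (n = 3). The levels run from 290 TPM for SERPINB6 to 0.750 TPM for SERPINB7 in control, and with P4HA3 SERPINB7 stands above SERPINB4 and SERPINB2.

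Proteases that clade B serpins are known to bind were given by a list of 28, of which 13 could be tested. None was called higher by edgeR's quasi-likelihood test, also at an unadjusted p under 0.05, nor by its exact test, DESeq2 or limma-voom. By the quasi-likelihood test 6 were called lower (CTSS, CTSH, FURIN, ST14, CASP1 and CASP10), with a median log2 fold change of -0.21. Over all genes tested 9.36% were called higher and 11.4% lower, with a median of 0.0055. The list held 1 call without control library 1, control library 2 or P4HA3 library 3, and 3 without P4HA3 library 2. ST14, or matriptase, a membrane-bound serine protease of epithelium, was at 3.92 ± 0.325 CPM in control and 1.77 ± 0.0528 CPM with P4HA3 (SD, n = 3), or -1.15 on the log2 scale (standard error 0.140), with an adjusted p = 0.00124 by edgeR's quasi-likelihood test. It was called in every fit that left out 1 library.

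Cathepsins are known targets of clade B serpins, and 2 of the 6 tested were called lower, against 11.4% of all genes tested. CTSH, cathepsin H, fell from 100.3 to 80.7 CPM (log2 fold change -0.31, adjusted p = 0.0119 by edgeR's quasi-likelihood test). CTSS, cathepsin S, fell from 1.67 to 1.00 CPM (log2 fold change -0.74, adjusted p = 0.0279 by the same test). CTSH and CTSS were each called in 3 of 6 fits that left out a library. CTSL, cathepsin L, was at 67.9 and 62.1 CPM (-0.13, adjusted p = 0.140), CTSK, cathepsin K, at 4.25 and 4.45 CPM (0.07, adjusted p = 0.767), CTSB, cathepsin B, at 409.8 and 358 CPM (-0.19, adjusted p = 0.0590) and CTSV, cathepsin V, at 14.5 and 14.9 CPM (0.03, adjusted p = 0.847). FURIN was called lower at -0.21 (adjusted p = 0.0441 by edgeR's quasi-likelihood test), but was at -0.01 with the GC and length trend removed (adjusted p = 0.925). PLAU, the urokinase that SERPINB2 blocks, was at 1.10 and 0.755 CPM, a log2 fold change of -0.53 (adjusted p = 0.131).

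The proteases of leukocyte granules that the other members catch had few or no counts. CTSG, GZMA, GZMB, GZMH and CMA1 had 0 counts in every library, ELANE had at most 5 and PRTN3 at most 7 counts.

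Factors and receptors known to act on clade B serpin genes in epithelium were given by a list of 32, of which 26 could be tested. Of these 1 (KLF4) was called higher and 8 (STAT6, JUNB, JUND, CEBPB, ETS2, IRF1, IL6 and IL4R) lower, against 9.36% and 11.4% of all genes tested. The median log2 fold change of the list was -0.11, and the calls numbered 5 without control library 2 or P4HA3 library 3. KLF4, a factor of epithelial differentiation, was at 24.4 and 28.9 CPM (0.24, adjusted p = 0.0498 by edgeR's quasi-likelihood test), and was called in 2 of 6 fits that left out a library. With the GC and length trend removed KLF4 was at 0.37 (adjusted p = 0.0057 by the same test). The list then held 3 calls higher and 8 lower. IL4R, a receptor chain for interleukins 4 and 13, fell from 22.1 ± 0.681 to 15.3 ± 0.822 CPM (SD, n = 3), or -0.53 on the log2 scale with a standard error of 0.0807 (adjusted p = 0.00316 by edgeR's quasi-likelihood test), and STAT6, the factor it activates, from 154 to 116 CPM (-0.41, adjusted p = 0.00341). Both were called in all 6 fits that left out a library and with the GC and length trend removed, at -0.38 and -0.29.

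IL6, an inflammatory cytokine, fell from 74.6 ± 3.48 to 52.6 ± 2.40 CPM (SD, n = 3), with a log2 fold change of -0.51 (adjusted p = 0.00135 by edgeR's quasi-likelihood test). Among AP-1 genes JUNB was called lower (-0.42, adjusted p = 0.00485) and was at -0.14 with the GC and length trend removed (adjusted p = 0.0255). JUND (-0.35) lost its call with the trend removed, where it was at -0.03, and so did CEBPB (-0.41), then at -0.12 (adjusted p = 0.0753). JUN (0.17, adjusted p = 0.168), FOSL1 (-0.12, adjusted p = 0.322) and FOS (-0.28, adjusted p = 0.127) were not called. Whether any of these genes bears on the serpins was not tested.

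Serpins of other clades, mostly secreted, were given by a list of 22 genes with SERPIN symbols, of which 7 could be tested. Of these 1 was called higher and 3 were called lower, against 9.36% and 11.4% of all genes tested. SERPINE2, or protease nexin 1, an extracellular thrombin and urokinase inhibitor, rose from 194 ± 7.26 to 334 ± 10.3 CPM (SD, n = 3), or 0.78 on the log2 scale with a standard error of 0.0551 (adjusted p = 7.46e-05 by edgeR's quasi-likelihood test), and was called in every alternative. SERPING1, the C1 inhibitor, fell from 2.20 ± 0.0900 to 1.32 ± 0.0270 CPM (SD, n = 3), with a log2 fold change of -0.73 (adjusted p = 0.0126). SERPINA1 and SERPINF2, both below 1 CPM, were the other 2 called lower, and both passed the filter on low counts through the control group. SERPINF2 was called in 1 of 6 fits that left out a library and lost its call with the GC and length trend removed (adjusted p = 0.077). DESeq2 called SERPINE2 alone of this list, and without control library 2 or P4HA3 library 3 the list likewise held 1 call, against 2 without control library 1.

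The collagen chaperone SERPINH1 was at 517 and 540 CPM (0.06, adjusted p = 0.472 by the same test), and was not called.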

How the data were processed

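RNA of 3 control and 3 P4HA3-overexpressing SiHa PR libraries was sequenced as paired ends of poly-A selected, strand-specific libraries. The deposited values are raw read counts per Ensembl gene, not normalized. The study's supplementary methods name STAR, GRCh38 and HTSeq for alignment and counting, whereas the submitters' processing notes list HISAT2. Versions, the strand setting and the treatment of reads with several matches are not given in the sources used here.

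Differences were tested with edgeR 4.0.16 in R 4.3.3 (filterByExpr with a minimum count of 10, TMM, quasi-likelihood test, two-sided, Benjamini-Hochberg over 15130 genes, threshold 0.05). Libraries within a group were further apart than sampling noise allows (chi-square per degree of freedom 5.17 to 17.8). Of 60664 gene identifiers 60463 matched the GENCODE annotation of GRCh38, which gave symbols, positions, GC content and lengths. TPM used the canonical transcript. Standard errors are the log2 fold change divided by the root of F. The GC and length correction fits each library's deviation by smooth terms (mgcv 1.9.3), entered as an offset, and also removes any biological part of such a trend. The fit and the correction were run on simulated counts, drawn independently, with a linear trend on GC content and length added to the P4HA3 libraries alone. These are simpler than the real libraries and do not show how far the calls here hold.

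The members, the gene lists and the correction were chosen with earlier results of these data known. The text names all members, the remaining clade B genes, P4HA3 and, from each list, called genes of at least 1 CPM with the largest changes, serpins of other clades of at least 10 CPM (1 of which is not reported here), and marker genes. NQO2, KDSR, VPS4B, SERPINA1, SERPINF2 and the proteases and factors given with low counts, or as not called, were singled out after their values were seen. The alternatives tried were limma-voom (limma 3.58.1), DESeq2 1.42.0, the exact test of edgeR, other normalizations and filters, a replicate block, fits without 1 library, a threshold of 0.01, the correction, SERPINB3 and SERPINB4 summed, and exon-union lengths. Fold changes and FPKM of the study were not used here. Sequences came from GRCh38 and from RefSeq promoter windows of that build.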

Additional observations from a re-analysis of the deposited data

How the results depend on the processing

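No log2 fold change of a member or of P4HA3 changed direction in an alternative that gave it a value, and SERPINB3, SERPINB4 and SERPINB6 were called lower in all of them. SERPINB2 got no adjusted p from DESeq2 and was not tested with at least 10 counts in every library, so 4 members were called lower in both. The number of members called higher was 2 with edgeR's exact test and with library sizes only, which add SERPINB5, and 2 with limma-voom, which adds SERPINB8. At an adjusted p under 0.01 it was 0, with 3 called lower and 4.81% of all genes called. With each library left out in turn, 0 to 2 members were called higher and 3 to 5 lower, and between 3.47% and 35.9% of all genes were called. The GC and length correction added SERPINB9, for 6 called lower. The difference of the cluster medians (-0.21) was 0.54 with at least 10 counts in every library, which leaves out SERPINB2. It was -0.39 to -0.10 with a library left out, and -0.42 with the GC and length correction. Exon-union lengths moved the control TPM of SERPINB6 to 51.1 and of SERPINB3 to 15.7.

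Deviations from the group means correlated at r = 0.25, -0.05 and 0.03 across genes between libraries with the same replicate number. Between libraries of unlike number r ran from -0.30 to 0.27. With 3 libraries a group this cannot settle whether the numbers pair the samples. With the replicate block the calls of the members were 1 higher and 5 lower as before, the difference of the medians was -0.21 and 28.5% of all genes were called.

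SERPINB2, SERPINB4 and SERPINB7 rest on 8 to 84 counts per library, and counting limits the precision of their fold changes. With 3 libraries a group, small differences such as those of SERPINB5, SERPINB8 and SERPINB9 lie near what the test can call.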
